A study of Mus musculus with 19 samples.

Results

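Inhibitory surface molecules of T cells were followed through mouse thymocyte development at the RNA and, where the panel allowed, the protein level. The members were the 5 genes Pdcd1, Lag3, Cd200, Btla and Tigit among 28692 genes, chosen by name, together with the 3 antibodies against their products, CD279(PD-1), CD223(LAG-3) and CD200(OX2), among 111 antibodies. The panel had no antibody against BTLA or TIGIT. CITE-seq, which reads the mRNA and the DNA-tagged antibodies of the same single cell, had been run on thymi of 17 female mice of 4 to 8 weeks.

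The wild-type (WT) group was 5 C57BL/6 mice. In 6 further genotypes, with 2 mice each, maturation was limited to 1 lineage. In 4 of them this was done by a T cell receptor (TCR) transgene, which is restricted by MHC class I in F5 and OT-I animals and by MHC class II in AND and OT-II animals. The other genotypes lack the restricting molecule of the opposite lineage and keep a varied set of TCRs: MHCI-/- animals carry the deletion B2m-/- and MHCII-/- animals H2-Ab1-/-. AND, OT-II and MHCI-/- mice are called CD4-fated, and F5, OT-I and MHCII-/- mice CD8-fated. AND and F5 animals lacked endogenous rearrangement (Rag1-/-), so that the transgene was their only TCR, and the AND line came from a B10 background. Thymocytes of WT 1 to WT 3 and of the MHCI-/- and MHCII-/- mice had been sorted for CD5+TCRB+ cells, whereas WT 4, WT 5 and the TCR transgenic mice were unsorted. Sorting and experiment therefore went with genotype, and differences between the TCR transgenic and the MHC-deficient genotypes cannot be told apart from sorting.

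PD-1, encoded by Pdcd1, binds the ligands PD-L1 and PD-L2 and recruits the phosphatase SHP-2, which dampens TCR and CD28 signals. LAG-3 resembles CD4 and binds MHC class II, BTLA binds HVEM, and TIGIT competes with CD226 for PVR and Nectin-2. CD200 is itself a ligand: it sits on the thymocyte and engages the inhibitory receptor CD200R1 on other cells. In the thymus, CD4+CD8+ double-positive (DP) cells rest until their TCR binds self peptide on MHC. A moderate signal starts positive selection towards CD4 or CD8 single-positive (SP) cells, and a strong one starts negative selection or diversion to the regulatory T (Treg) lineage.

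In GRCm38 the members lie on 3 chromosomes. Pdcd1 spans chr1:94038305-94052553 on the minus strand and Lag3 chr6:124904361-124911705 on the minus strand, 16139 bases from Cd4. Cd200 (chr16:45382135-45409053, minus strand) and Btla (chr16:45224315-45257670, plus strand) are 124464 bases apart, and Tigit (chr16:43648867-43664146, minus strand) is on the same chromosome. No member overlapped another annotated gene. The promoters of the members with the steepest rise in RNA at the signaled DP stage and an antibody to follow it are printed from the RefSeq table for GRCm38.p6, which held 4 of the 5 members. Each line is the 250 bases before the transcription start, read 5′ to 3′ on the gene's own strand. In Pdcd1, capitals mark the NFAT core GGAAA (written here as its reverse complement), and in Cd200 they mark the Egr motif GCGNGGGCG, because NFAT and Egr factors act downstream of the TCR.
Pdcd1 promoter, chr1:94052554-94052803: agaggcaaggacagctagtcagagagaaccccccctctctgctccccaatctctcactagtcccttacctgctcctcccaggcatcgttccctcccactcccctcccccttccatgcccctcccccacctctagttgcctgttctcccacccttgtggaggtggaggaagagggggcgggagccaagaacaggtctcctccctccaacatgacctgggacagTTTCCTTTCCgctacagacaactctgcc
Cd200 promoter, chr16:45409054-45409303: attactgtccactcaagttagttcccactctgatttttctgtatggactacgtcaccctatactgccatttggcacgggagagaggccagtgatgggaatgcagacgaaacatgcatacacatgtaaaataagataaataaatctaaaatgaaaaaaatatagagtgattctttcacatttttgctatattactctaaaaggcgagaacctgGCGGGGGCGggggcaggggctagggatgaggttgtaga
Searched on both strands, the Pdcd1 window held 2 sites of the NFAT core, as did that of Tigit. Of all 32851 promoter windows of this length, 55.57% held at least 1 such core and 4.697% held the Egr motif. None of the 4 windows held the AP-1 motif TGANTCA, found in 6.749% of promoters, or the Nr4a motif AAAGGTCA, found in 1.336%. These are letter matches in a short window and say nothing about binding.

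After filters, 69290 of 85389 barcodes were kept, from 19 lanes, in which a cell had a median of 1502 to 7179.5 UMIs of RNA and 1100 to 6573 of antibodies. Of 68631 barcode sequences, 655 occurred in more than 1 lane. In the lane of AND 2, 1901 of 4518 barcodes passed. The labels were checked against the lesions. B2m was at 47.6 and 49.6 UMIs per 1000000 RNA UMIs (CPM) in the MHCI-/- mice and at 400 or more elsewhere, the I-A/I-E antibody was at 2.22 and 2.26 per 10000 antibody UMIs in MHCII-/- mice against at least 24 elsewhere, and the Vb5 antibody was at 108 to 165 in the OT mice against at most 20.6. Cells were grouped by RNA clusters built without the members, and named from fixed markers as quiescent DP-like (Rag1, Arpp21), signaled DP-like (Egr1, Egr2, Cd69, Itm2a), negative selection-like (Nr4a1, Bcl2l11; 862 cells) and Treg-like (Foxp3, Tnfrsf4, Ikzf2; 1189 cells). Of the signaled DP-like clusters, the larger (9017 cells) had Itm2a as its only signaled DP marker among its first 10 genes. Beside it stood the CD4 SP marker Cd40lg, Il7r and Bcl2. The other cluster (5162 cells) had Egr1, Egr2 and Cd69. The signaled DP-like class was therefore not shown to hold DP cells alone, and steps between it and the SP classes may include immature SP cells on its side. Of the Treg-like cells, 641 came from a cluster led by Foxp3 and 548 from one with Tnfrsf4 and Ikzf2, but not Foxp3, among its first 10 genes. CD4 SP and CD8 SP were cells of the SP clusters split by their CD4 and CD8a antibodies. One WT mouse stood apart in these classes. Rag1, which resting DP cells express, was at 244 to 383 CPM in WT 5 outside quiescent DP-like cells and at most 7.5 in WT 1 to WT 3, with WT 4 at 19.7 to 124.

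Pdcd1 rose from the quiescent to the signaled DP-like class and was low again in the SP classes. In quiescent DP-like cells Pdcd1 was at 0, 0.963, 0, 0.678 and 1.74 CPM in WT 1 to WT 5. In signaled DP-like cells it was at 62.1, 79.7, 64.8, 44.6 and 39.9 CPM, so that every mouse was far above every resting value. In CD4 SP cells it was back at 5.56, 7.43, 10.7, 5.26 and 3.19 CPM and in CD8 SP cells at 7.44, 7.39, 5.92, 7.82 and 1.58 CPM, with no overlap with the signaled stage. The rise from quiescent to signaled DP-like cells was 5.75 ± 0.23 on the log2 scale (SE; 5 mice, adjusted p = 8.7e-11), in a contrast in which 53.6% of all genes were called. The fall to CD4 SP was -2.88 ± 0.13 (adjusted p = 3.9e-16; 44.9% of genes called) and the fall to CD8 SP -2.93 ± 0.16 (adjusted p = 3.8e-15; 47.2% called). These contrasts share the signaled DP-like samples. CD4 SP and CD8 SP cells did not differ detectably in Pdcd1, at 0.04 (adjusted p = 0.92).

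The CD279(PD-1) antibody moved in the same directions but over a narrower range. It stood at 25.1, 16.6, 17.4, 20.8 and 18.2 per 10000 antibody UMIs in WT 1 to WT 5 at the quiescent DP-like stage, and at 43.8, 24.5, 27.5, 22.9 and 24.1 at the signaled one. Each mouse rose, although the groups met because WT 1 was high throughout. The log2 rise was 0.58 ± 0.11 (adjusted p = 0.0010; 30.6% of 111 antibodies called). In CD4 SP cells the antibody was at 36.1, 19.6, 21.2, 18.3 and 16.9, a fall of -0.39 ± 0.06 on the log2 scale (adjusted p = 0.0039; 44.1% called). In CD8 SP cells it was at 39.7, 19.4, 22.3, 17.6 and 14.8, a fall of -0.50 ± 0.10 (adjusted p = 0.0092; 37.8% called). Without WT 3 or without WT 5 neither fall was called (adjusted p = 0.0976 and 0.0857 for CD4 SP, 0.0751 and 0.0638 for CD8 SP). The fall to CD8 SP was also not called without the Nrgn-led cells described further on (-0.25, adjusted p = 0.0891) or with a stricter antibody ratio of 8 between the coreceptors (adjusted p = 0.0540). The panel had no isotype control, and B-like cells of WT 4 and WT 5, in which no Pdcd1 UMI was found, still carried 16.3 and 13.8 per 10000, below but near the resting level of those mice, so the lower values cannot be read as PD-1 protein.

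Cd200 rose at the same step as Pdcd1, and its values in the CD4 SP and CD8 SP classes lay above every quiescent DP-like value. In quiescent DP-like cells it was at 6.20, 5.78, 10.6, 0.678 and 9.22 CPM in WT 1 to WT 5, and in signaled DP-like cells at 29.7, 55.5, 58.9, 32.6 and 105 CPM, without overlap (log2 change 3.96 ± 0.27, adjusted p = 1.2e-08). CD4 SP cells held 47.2, 50.3, 57.6, 62.3 and 126 CPM and CD8 SP cells 41.3, 29.9, 39.8, 34.3 and 64.6 CPM. Cd200 was thus higher in CD4 than in CD8 SP cells of every WT mouse, by 0.64 ± 0.10 on the log2 scale (adjusted p = 1.4e-07; 36.4% of genes called). CD4 SP also exceeded signaled DP-like cells by 0.56 ± 0.11 (adjusted p = 1.4e-04), a call lost at the finer cluster resolution (adjusted p = 0.175), whereas for CD8 SP the change was -0.10 (adjusted p = 0.59), called as a fall with library size scaling (-0.38, adjusted p = 0.0187) and over all 17 mice (-0.36, adjusted p = 0.00679). WT 5, the mouse with Rag1 in every class, was the highest WT mouse for Cd200 in the signaled DP-like, SP, negative selection-like and Treg-like classes, and the part of its Rag1 signal in this was not tested.

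Among the classes, Cd200 had its highest medians over WT mice in Treg-like and negative selection-like cells. Negative selection-like cells held 125, 163, 215, 116 and 273 CPM, and Treg-like cells 120, 206, 242, 152 and 399 CPM. Negative selection-like cells exceeded signaled DP-like cells by 1.78 ± 0.12 on the log2 scale (adjusted p = 2.5e-19; 30.2% of genes called), and Treg-like exceeded CD4 SP cells by 1.62 ± 0.10 (adjusted p = 4.0e-17; 20.7% called). Of these 2 classes, Treg-like was the higher in 4 of 5 mice. Other markers moved with the negative selection-like class. Its 6 Treg markers, which share Ikzf2 with its own list, summed to a median of 2431 CPM, beside 594 in signaled DP-like and 3019 in Treg-like cells, and its 5 NKT markers to 552 CPM, beside 16.6 in signaled DP-like cells, with Klrb1c at 0. Their part in its member levels was not tested.

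The CD200(OX2) antibody rose with its RNA in 4 of the 6 contrasts. It was at 4.402, 5.35, 4.70, 13.9 and 14.6 per 10000 in quiescent DP-like cells of WT 1 to WT 5, at 6.57, 7.295, 10.9, 16.6 and 21.5 in signaled DP-like cells, and at 9.09, 10.3, 13.4, 28.8 and 28.6 in CD4 SP cells. WT 4 and WT 5, from the third experiment and unsorted, were higher in each class, so the steps were read within mice. The rise to signaled DP-like cells was 0.67 ± 0.11 on the log2 scale (adjusted p = 1.9e-04) and that on to CD4 SP 0.47 ± 0.09 (adjusted p = 0.0084; 0.0652 without WT 1). In Treg-like cells the antibody was at 18.4, 25.8, 31.9, 64.4 and 66.7, above CD4 SP cells of the same mouse in all 5, by 1.08 ± 0.08 (adjusted p = 4.9e-05; 43.2% of antibodies called). In negative selection-like cells it was at 11.5, 11.5, 17.7, 26.3 and 29.6, 0.65 ± 0.07 above signaled DP-like cells (adjusted p = 4.3e-04; 18% called). In CD8 SP cells it was at 10.4, 10.04, 12.7, 25.6 and 26.6, which was 0.33 ± 0.11 from signaled DP-like cells and did not pass (adjusted p = 0.061), although it did with DESeq2 (0.0212) and with library size scaling (0.0140). CD4 and CD8 SP cells differed by 0.15 (adjusted p = 0.17; 34.2% called), so that the CD4 SP excess of Cd200 RNA had no counterpart at the surface that passed the test (over all 17 mice it did, with 0.36 and adjusted p = 0.0114).

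Btla rose from the quiescent to the signaled DP-like class and did not differ detectably between the latter and CD4 SP cells. It was at 1.55, 3.85, 7.97, 0.226 and 2.09 CPM in quiescent DP-like cells, at 33.5, 36.6, 33.1, 22.9 and 32.5 CPM in signaled DP-like cells, and at 27.8, 27.1, 32.5, 28.96 and 25.5 CPM in CD4 SP cells. The step into signaled DP-like cells was 4.69 ± 0.34 on the log2 scale (adjusted p = 1.9e-08), and that to CD4 SP cells 0.11 (adjusted p = 0.44). CD8 SP cells, at 23.7, 22.5, 18.3, 16.2 and 25.2 CPM, lay 0.33 below signaled DP-like cells (log2 change -0.33 ± 0.12, adjusted p = 0.032) and 0.44 ± 0.14 below CD4 SP cells (adjusted p = 0.0088). Neither of these last calls was firm: with DESeq2 they came to adjusted p = 0.199 and 0.159, and without WT 3 to 0.124 and 0.122. The first was also lost without WT 2 (0.137) and the second without WT 4 (0.0574). Of the 6 main classes, Btla had its highest median in negative selection-like cells, at 99.4, 63.3, 54.5, 63.0 and 123 CPM, above every signaled DP-like value (log2 change 1.35 ± 0.16, adjusted p = 3.1e-10). In Treg-like cells, at 13.4, 25.6, 43.1, 28.1 and 30.2 CPM, it was not raised over CD4 SP cells (-0.17, adjusted p = 0.61). B-like cells held 88.5 and 119.7 CPM in WT 4 and WT 5, and B cells are known to express BTLA.

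Lag3 went the other way at the first step. It was at 6.97, 14.4, 2.66, 18.8 and 10.96 CPM in quiescent DP-like cells and at 1.54, 3.91, 4.598, 4.23 and 3.94 CPM in signaled DP-like cells of WT 1 to WT 5, and WT 3 was the only mouse that did not show the drop. The log2 change was -1.72 ± 0.25 (adjusted p = 3.0e-05), with 76 UMIs behind the 5 signaled values. In CD4 SP cells 5 UMIs were left, at 0, 0.240, 1.07, 0.439 and 0 CPM (log2 change -2.86 ± 0.54, adjusted p = 7.1e-05), and in CD8 SP cells only WT 4 had any. In Treg-like cells Lag3 returned to 4.45, 12.8, 11.2, 11.2 and 6.702 CPM, above all CD4 SP values (4.33 ± 0.64, adjusted p = 5.1e-07). Negative selection-like cells were at 4.23, 9.50, 9.08, 8.13 and 8.796 CPM on 17 UMIs, a difference of 1.204 ± 0.51 from signaled DP-like cells that did not pass (adjusted p = 0.065), although it did at the finer cluster resolution (1.66, adjusted p = 0.00359).

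The CD223(LAG-3) antibody did not follow the RNA. It was at 29.9, 31.6, 40.4, 24.1 and 23.6 per 10000 in quiescent DP-like cells, and their signaled counterparts were at 27.8, 28.8, 40.9, 21.3 and 20.7 (log2 change -0.05, adjusted p = 0.71). Treg-like cells, in which Lag3 RNA rose, were at 28.3, 28.3, 42.2, 18.8 and 18.5 against 29.6, 30.8, 43.2, 18.7 and 20.04 in CD4 SP cells (-0.19, adjusted p = 0.076). This fall was called with DESeq2 (-0.29, adjusted p = 1.3e-06), over all 17 mice (0.0311) and without WT 1 (0.00675). CD8 SP cells were the lowest of the main classes, at 25.2, 26.6, 36.1, 17.9 and 18.2, which was -0.30 ± 0.08 from signaled DP-like cells (adjusted p = 0.022) and 0.29 ± 0.06 below CD4 SP cells (adjusted p = 0.0046). The first of these calls was lost when any 1 of the 5 mice was left out (adjusted p from 0.0699 to 0.421), and the second without WT 1 (0.195). B-like cells, with no Lag3 UMI, carried 16.3 and 15.2 per 10000 in WT 4 and WT 5, beside 17.9 and 18.2 in CD8 SP cells of the same mice.

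Tigit was close to the limit of detection. Over the 5 WT mice it gave 17 UMIs in signaled DP-like cells (5, 5, 4, 3 and 0 by mouse), 6 in negative selection-like cells and 2 in Treg-like cells, and it did not pass the filter on low counts in any test.

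Against CD4 SP cells, Treg-like cells also had higher Pdcd1, at 19.3, 44.9, 46.8, 25.3 and 16.8 CPM (2.16 ± 0.23 on the log2 scale, adjusted p = 2.2e-10), and a higher CD279(PD-1) level, at 43.9, 27.5, 28.8, 27.4 and 23.9 per 10000 (0.34 ± 0.07, adjusted p = 0.0066). That antibody call was lost at the finer cluster resolution (adjusted p = 0.0784) and over all 17 mice (0.279). Markers of other classes moved with the Treg-like class. Its 7 negative selection markers, which include Ikzf2, summed to a median of 1896 CPM, beside 234 in CD4 SP cells. The 5 NKT markers, which share Il2rb with the Treg list, summed to 89.9 CPM, beside 9.65, with Zbtb16 and Klrb1c at 0 in Treg-like cells. Their part in its member levels was not tested.

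**Figure D1:**
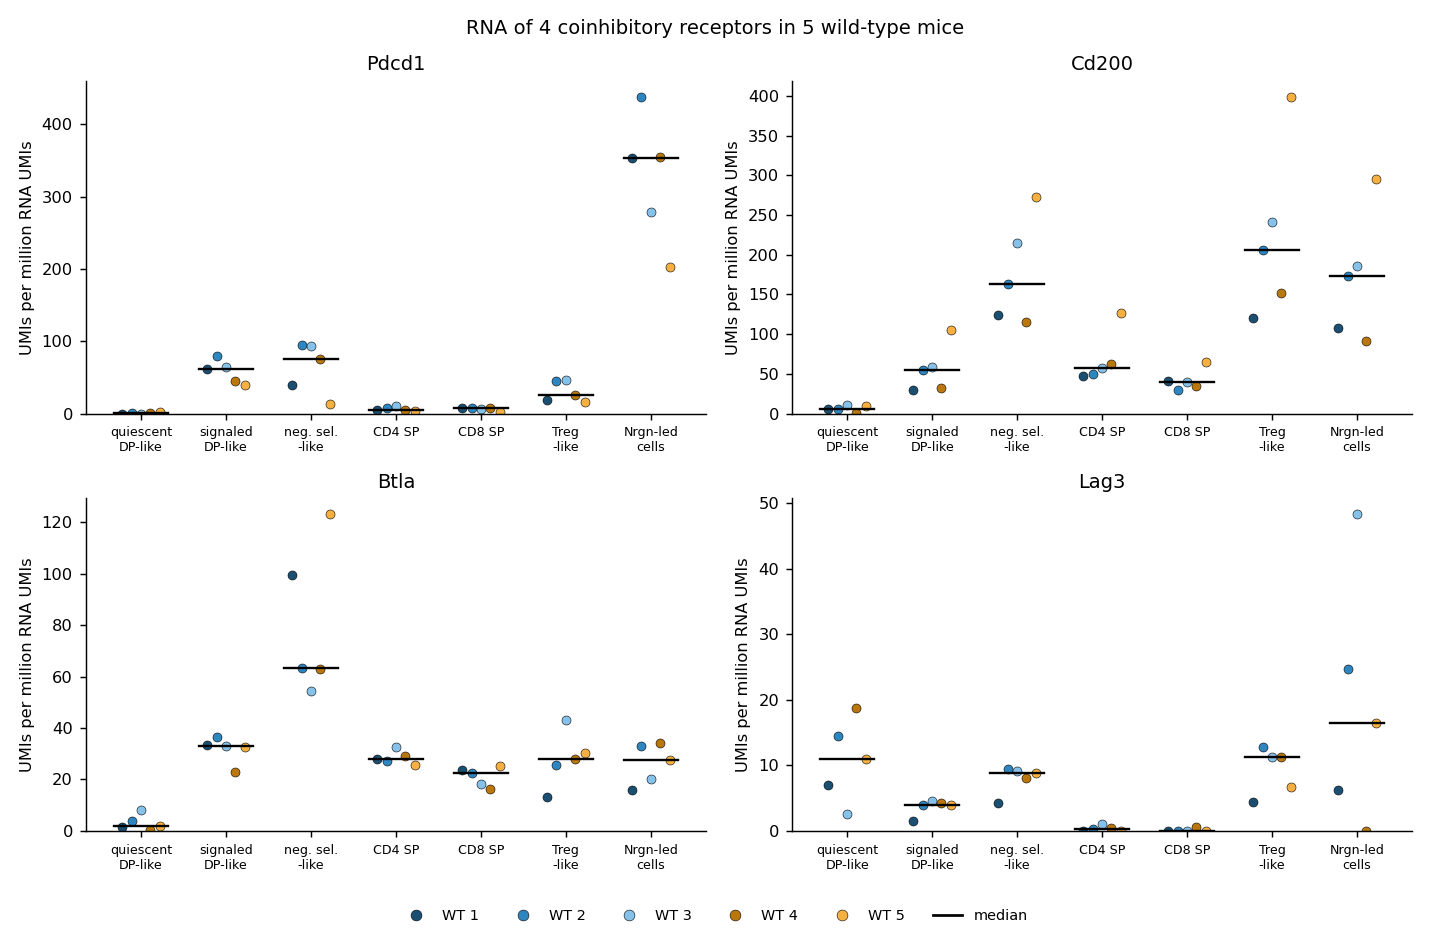
RNA of Pdcd1, Cd200, Btla and Lag3 in UMIs per 1000000 RNA UMIs (y axis, linear, each panel with its own scale) in 6 cell classes and in the Nrgn-led cells, most of which are also counted in the signaled DP-like class (x axis). Points are WT 1 to WT 5 and the bar is their median; Pdcd1 is near 0 in quiescent DP-like cells and between 203 and 438 in Nrgn-led cells.

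**Figure D2:**
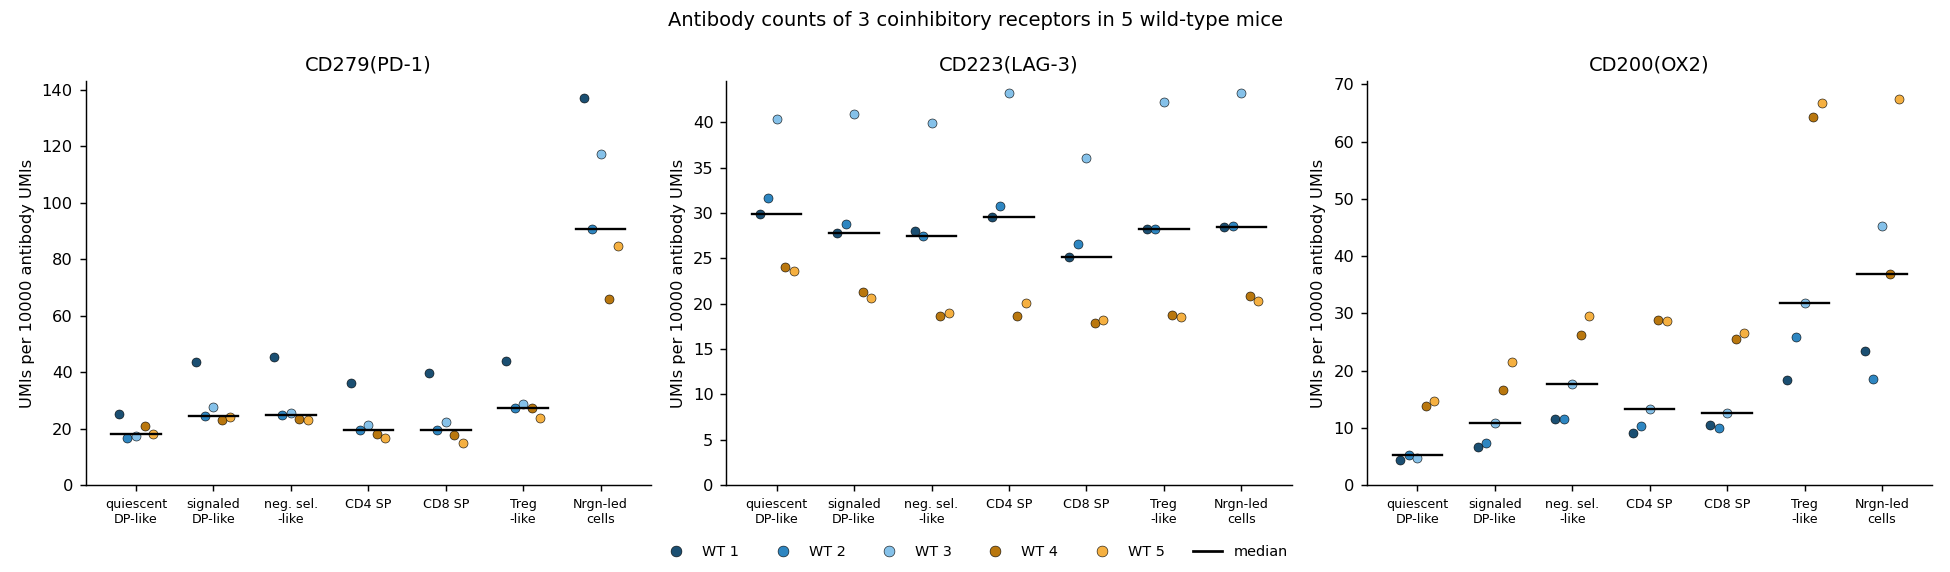
Antibody counts of CD279(PD-1), CD223(LAG-3) and CD200(OX2) in UMIs per 10000 antibody UMIs (y axis) in the same groups of cells, with points for WT 1 to WT 5 and a bar at the median. CD200(OX2) is highest in Treg-like and Nrgn-led cells, CD279(PD-1) is highest in Nrgn-led cells, and CD223(LAG-3) differs more between mice than between classes.

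The 14 classes with enough cells were ordered by their median over WT mice. For Pdcd1 the order ran from negative selection-like over signaled DP-like and myeloid-like cells down to quiescent DP-like cells, and no neighbours in it had ranges that did not overlap. The same held for all 3 antibodies and for Tigit, whose median was 0 in every class but the negative selection-like and signaled DP-like ones. Among the 13 neighbouring pairs of each member, ranges were separate only for Btla between negative selection-like and signaled DP-like cells, for Cd200 between negative selection-like cells and SP cells with neither coreceptor dominant, and for Lag3 between an unnamed cluster and signaled DP-like cells. These ranges are over mice and leave out that classes came from the same animals: CD200(OX2) ranges of Treg-like and negative selection-like cells overlapped although the former were higher within each of the 5 mice. Myeloid-like cells held Pdcd1 at 60.7, 32.9, 90.14, 65.1 and 17.9 CPM in WT 1 to WT 5 and Lag3 at 4.05, 19.2, 0, 25.03 and 23.9 CPM. This class was mixed. Its 7 myeloid markers summed to 237 to 9429 CPM over the WT mice, the 5 NKT markers to 300.4 to 939 CPM and the 4 erythrocyte markers to 0 to 13116 CPM, and the part of each in the 2 receptors was not tested.

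A small group of cells held much of the Pdcd1 RNA of the signaled DP-like class. At the finer cluster resolution, 582 cells formed a cluster led by Nrgn, Cldn10, Trpm1, Klhdc2 and Eno3. The genes behind the clusters did not include the members. Of these cells, 546 (93.81%) were in the signaled DP-like class. They are called by their leading genes here, although the fixed markers at that resolution placed them with the negative selection-like clusters, with Ikzf2 among their first 10 genes. The paper describes an early negative selection cluster next to its signaled DP cells, with Pdcd1 raised and CD4 and CD8 lowered. Whether the Nrgn-led cells correspond to that cluster was not tested. Pdcd1 in them was at 354, 438, 278, 354 and 203 CPM in WT 1 to WT 5, at 314 and 449.7 in MHCI-/- mice, and at 522 and 492 in MHCII-/- mice. The CD279(PD-1) antibody was at 137, 90.9, 117, 65.9 and 84.8 per 10000 in the WT mice, 121 and 90.6 in MHCI-/- mice, and 128 and 138 in MHCII-/- mice. Every one of these antibody values was above the CD279(PD-1) level of every WT mouse in each of the 6 main classes. Cd200 was at 91.4 to 296 CPM and the CD200(OX2) antibody at 18.6 to 67.4 per 10000 in the WT mice, whereas Btla, at 15.8 to 34.3 CPM, and the CD223(LAG-3) antibody, at 20.3 to 43.3, lay near the levels of the class as a whole. Lag3 was at 6.32, 24.8, 48.4, 0 and 16.4 CPM in these cells of WT 1 to WT 5, on 0 to 12 UMIs a mouse, beside 1.54 to 4.598 in the class. These values are a description of a cluster and were not tested.

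The Nrgn-led cells were unevenly spread over genotypes. They made up 2.51% to 5.54% of the signaled DP-like cells in WT mice, 1.60% and 3.09% in MHCI-/- mice, 6.97% and 9.26% in MHCII-/- mice, and at most 1.28% in TCR transgenic mice, with none in the AND mice or F5 2. Yet they held 26.5% to 44.4% of the Pdcd1 UMIs of that class in WT mice and 58.6% and 63.6% in MHCII-/- mice. With them, signaled DP-like cells of the MHCII-/- mice were at 112 and 121 CPM of Pdcd1 against 60.1 and 70.2 in MHCI-/- mice. Without them, the MHCII-/- mice were at 52.6 and 52.3 and the MHCI-/- mice at 53.2 and 48.7, so that the 2 genotypes no longer stood apart. For CD279(PD-1) the change was from 29.2 and 33.4 per 10000 to 22.1 and 23.1 in MHCII-/- mice, beside 22.9 and 21.6 in MHCI-/- mice without these cells. In WT mice without them Pdcd1 was at 45.5, 59.6, 41.6, 33.9 and 24.2 CPM, and its rise from quiescent DP-like cells remained (5.28 on the log2 scale, adjusted p = 1.4e-09). This left-out setting, chosen after the data were seen, left 94 member results the same, lost the call of 3 and changed the sign of 2. It brought 5 member results past the threshold that the main setting had not called. Among them, negative selection-like cells exceeded signaled DP-like cells in Pdcd1 by 0.73 (adjusted p = 0.000279, against 0.25 ± 0.16 and 0.25 with all cells) and in Lag3 by 1.72 (adjusted p = 0.013). Of the cells left out, over all mice, 546 were signaled DP-like and 1 was negative selection-like. Since they were high in Pdcd1, a larger Pdcd1 difference followed from leaving them out and is no separate evidence. At the finer resolution all clusters were drawn anew and the Nrgn-led cells were counted as negative selection-like. The Pdcd1 difference of that class was then 1.76 and the CD279(PD-1) difference 0.84, against -0.02 before, and the part of the Nrgn-led cells in this was not tested.

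**Figure D3:**
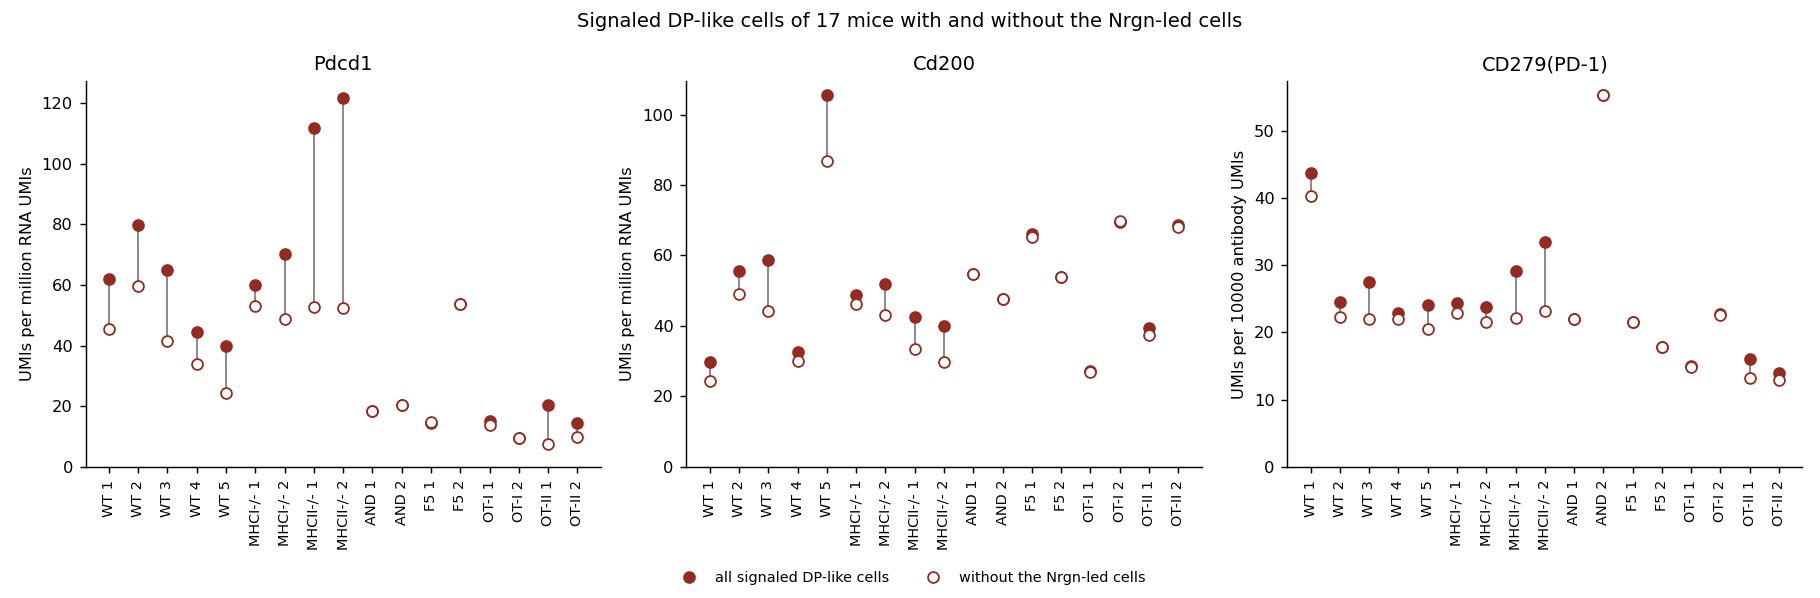
Levels of Pdcd1 and Cd200 (UMIs per 1000000 RNA UMIs) and of CD279(PD-1) (UMIs per 10000 antibody UMIs) in signaled DP-like cells of each of 17 mice (x axis), with all cells (filled) and without the Nrgn-led cells (open), joined by a line for each mouse. The longest lines are those of Pdcd1 in the MHCII-/- mice, which fall from 112 and 121 to 52.6 and 52.3.

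Per cell, the RNAs of the members were sparse. With every cell thinned to 1500 RNA UMIs and cells of the 5 WT mice pooled, a Pdcd1 UMI was found in 11 of 8153 quiescent DP-like WT cells (0.135%), 347 of 5041 signaled DP-like cells (6.88%), 28 of 411 negative selection-like cells (6.81%) and 30 of 2427 CD4 SP cells (1.24%). Without thinning these shares were 0.200%, 13.5%, 20.1% and 3.15%, over 11492, 5496, 432 and 2447 cells. The shares of cells with Cd200 at these stages were 0.319%, 6.43%, 18.7% and 8.90%, and those with Btla 0.184%, 4.30%, 10.7% and 3.58%. Lag3 was found in 2.13% of quiescent and 0.536% of signaled DP-like cells and in 0 of 1164 CD8 SP cells (0.0855% without thinning), which allows a share of cells with a UMI of up to 0.258% at this thinned depth. In B-like cells Pdcd1 was found in 0 of 50 cells, which allows up to 6.0% with a UMI. The median depth before thinning was 2205.5 UMIs in quiescent DP-like, 3655 in signaled DP-like, 4417 in negative selection-like and 3876 in B-like cells, and these limits cover counting error only and do not limit the share of cells that express a gene. Among WT signaled DP-like cells, a Cd200 UMI occurred in 9.80% of cells with a Pdcd1 UMI (34 of 347) and 6.18% of the others, and a Btla UMI in 7.205% and 4.09%.

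In signaled DP-like cells, the PD-1 and CD200 antibodies were higher on cells with the RNA of the same member. Within signaled DP-like cells of a mouse, the CD279(PD-1) level of cells with a Pdcd1 UMI exceeded that of cells without by 0.94 ± 0.47 on the log2 scale (mean ± SD, n = 11 mice). All 11 mice showed this direction (exact sign-flip test, two-sided, p = 0.000977, the smallest 11 mice allow; adjusted over 15 pairs 0.0073). The CD200(OX2) level was higher in cells with a Cd200 UMI by 0.43 ± 0.34 (15 of 16 mice, exact test, adjusted p = 0.0032). Across members, CD200(OX2) was higher by 0.57 ± 0.45 in cells with a Pdcd1 UMI (10 of 11 mice, exact test, adjusted p = 0.0244) and CD279(PD-1) by 0.30 ± 0.42 in cells with a Cd200 UMI (11 of 16 mice, exact test, adjusted p = 0.0370). Neither cross-member difference was left without the Nrgn-led cells, at 0.02 and -0.01 (exact tests, adjusted p = 1). The first was also not called in cells with 2000 to 6000 antibody UMIs (exact test, adjusted p = 0.0586), and neither was called with cells thinned to 1000 RNA UMIs (exact tests, adjusted p = 0.0781 and 0.301). Without the Nrgn-led cells the 2 within-member differences were 0.42 ± 0.15 and 0.16 ± 0.18 and were still called (exact tests, adjusted p = 0.0146 and 0.0263). A Btla UMI went with none of the 3 antibodies (differences of 0.03, -0.02 and -0.03), although without the Nrgn-led cells CD279(PD-1) was 0.07 ± 0.08 higher in such cells (12 of 15 mice, exact test, adjusted p = 0.0308). Lag3 had too few cells in all but 1 mouse. In Treg-like cells no pair could be called, because the smallest p that 7 mice allow (exact test, 0.0156) does not pass the adjustment over 15 pairs. There CD200(OX2) was 0.21 ± 0.21 higher in cells with a Cd200 UMI (6 of 7 mice, exact test, p = 0.0469, adjusted p = 0.703).

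**Figure D4:**
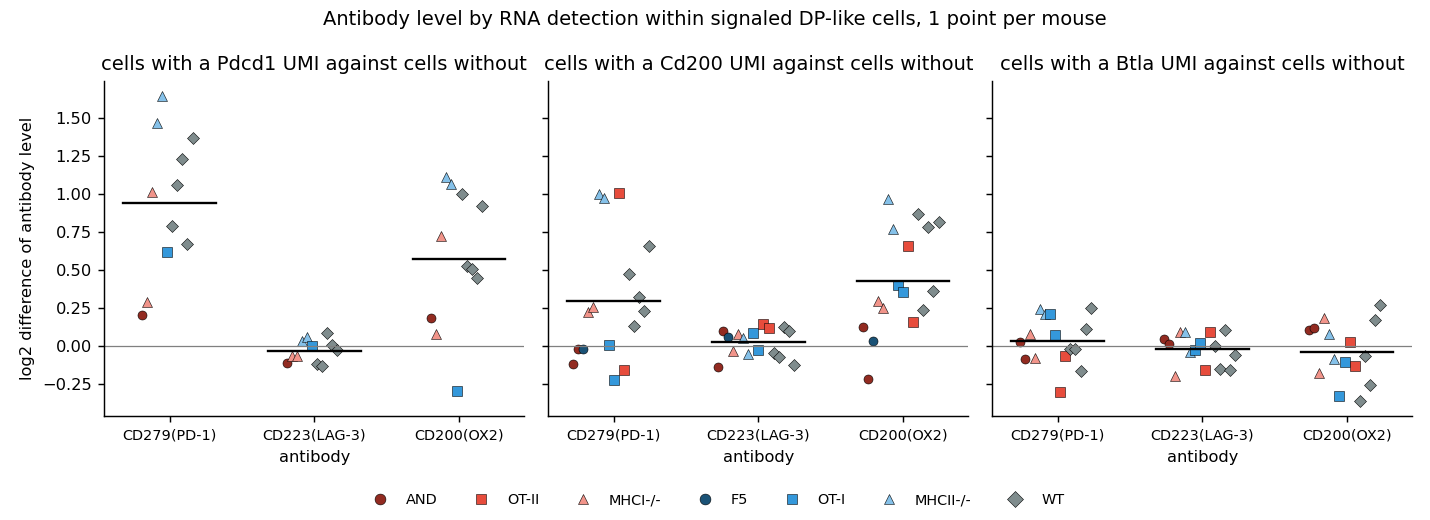
Difference in antibody level (log2, y axis) between signaled DP-like cells with and without a UMI of Pdcd1, Cd200 or Btla (panels), for the CD279(PD-1), CD223(LAG-3) and CD200(OX2) antibodies (x axis), with 1 point per mouse and a bar at the mean. All 11 mice lie above 0 for CD279(PD-1) in cells with Pdcd1, and CD223(LAG-3) lies around 0 in all panels.

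Between genotypes, Pdcd1 in signaled DP-like cells was lower in 7 of 8 TCR transgenic mice than in any WT or MHC-deficient mouse. AND mice were at 18.4 and 20.3 CPM, OT-I at 14.97 and 9.60, OT-II at 20.5 and 14.4, and F5 at 14.5 and 53.8, the last from 21 cells. The gamma-delta T cell marker Trdc also differed in this class. It was at 200 to 457 CPM in AND, F5 and OT-I mice and at 52.3 and 49.5 in OT-II mice. In WT and MHC-deficient mice it was at 18.5 to 32.5 CPM. Other gamma-delta readouts did not follow Trdc throughout. Sox13 was at 0 in F5 1 and F5 2 and at 29.76 and 47.59 CPM in OT-I mice. WT mice were at 4.928 CPM or less. The antibody against the gamma-delta TCR was at 2.669 and 5.079 per 10000 in OT-I mice, below the lowest WT value of 6.355. In AND mice it was at 13.79 and 27.47. The relation of these readouts to Pdcd1, and whether the class held gamma-delta T cells, was not tested. Within the third experiment, where all mice were unsorted, WT 4 and WT 5 at 44.6 and 39.9 CPM were above the 4 OT mice. These levels include the Nrgn-led cells, which were more frequent in WT mice. Without them WT 4 and WT 5 were lower, as given above, though still above the highest OT value of 20.5. Btla had another order, with OT-II at 54.7 and 62.3 CPM, OT-I at 40.6 and 48.5, AND at 38.9 and 46.3, MHCI-/- at 40.6 and 34.9, F5 at 29.1 and 13.5, and MHCII-/- at 19.5 and 23.1. The genotypes were not tested against each other, since each had 2 mice. The antibodies carried differences between mice that went with the library. AND 2 was high for CD279(PD-1), CD200(OX2) and CD223(LAG-3) alike, at 55.3, 43.8 and 65.7 per 10000 in signaled DP-like cells, against 22.0, 14.6 and 33.9 in AND 1, while its RNA levels were those of AND 1. The OT mice were low for CD223(LAG-3), at 7.14 to 14.6, beside 21.3 and 20.7 in WT 4 and WT 5 of the same experiment. The part of the library in these antibody values was not tested.

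To set the CD4 and CD8 lineages side by side, 27594 cells from signaled DP-like to SP clusters were ordered by RNA and cut into 6 bins of equal size. The order had a Spearman correlation of 0.761 with a maturation score over cells, and its last sub-clusters were of the CD8 type (median ranks 0.905 and 0.968, against 0.797 for the last CD4 type), so that equal maturity of both lineages within a bin was not shown. Along this pseudotime, Pdcd1 was high early and low at the end in most mice. In bin 1 it was at 125 and 114.3 CPM in MHCI-/- mice and at 191 and 199.7 in MHCII-/- mice, and in bin 6 at 2.21 and 4.85 and at 9.84 and 9.04. The 5 WT mice fell from 107, 154, 133, 66.5 and 46.8 CPM in bin 1 to 8.78, 4.43, 3.75, 4.52 and 1.702 in bin 6. The OT-II mice differed in shape, with 5.78 and 0 CPM in bin 1 and 32.9 and 18.2 in bin 4. Pdcd1 was highest in bin 1 in 5 of 5 WT mice, in the 5 CD8-fated mice that had enough cells there, and in 2 of 6 CD4-fated mice. It changed over the bins in CD4-fated (F = 20.1, adjusted p = 2.0e-10; 46.2% of genes called) and CD8-fated mice (F = 131, adjusted p = 1.2e-23; 57.9% called).

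In the MHCII-/- mice Pdcd1 was at 57.7 and 58.6 CPM in bin 3, 71.4 and 81.6 in bin 4, and 60.1 and 76.0 in bin 5. The rise from bin 3 to bin 4 stayed below the bin 2 level of each mouse, given further on. Nrgn-led cells held 444 of all 1023 Pdcd1 UMIs in MHCII-/- 1 and 993 of 2104 in MHCII-/- 2. Their part in this course was not tested. The CD279(PD-1) antibody in these mice was at 32.8 and 33.997 per 10000 in bin 4 and at 20.1 and 20.3 in bin 6. In MHCI-/- mice the same bins held Pdcd1 at 19.9 and 42.1 CPM and at 2.21 and 4.85, and CD279(PD-1) at 21.2 and 18.8 and at 17.3 and 16.9. CD279(PD-1) changed over the bins in CD8-fated mice (F = 8.102, adjusted p = 4.1e-04; 55.9% of antibodies called), and in CD4-fated mice it was at F = 2.39 (adjusted p = 0.127; 40.5% called), which was called with 3 experiments in the correction (F = 3.38, adjusted p = 0.0368). CD223(LAG-3) changed over the bins in CD8-fated mice (F = 6.71, adjusted p = 0.0014), a call lost without MHCII-/- 1 (0.0850) or MHCII-/- 2 (0.0882), and was at F = 2.08 in CD4-fated mice (adjusted p = 0.192).

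Cd200 was lowest at the end of the order. Its median over WT mice was 67.04 CPM in bin 1, 32.3 in bin 2, 42.4 in bin 3 and 66.2 in bin 5. In WT mice it was at 70.03, 66.4, 94.4, 64.4 and 116 CPM in bin 4 and at 26.3, 23.2, 30.5, 26.5 and 54.5 in bin 6, the lowest bin of 4 of the 5 mice. It changed over the bins in CD4-fated (F = 13.5, adjusted p = 8.3e-08) and CD8-fated mice (F = 24.7, adjusted p = 6.8e-11), the first call being lost when cells were ordered by a maturation score (adjusted p = 0.483). CD200(OX2) was also highest in bin 4 in 5 of 6 CD8-fated mice, for example at 15.1 and 15.6 per 10000 in MHCII-/- mice against 7.41 and 7.39 in bin 1 (F = 10.2, adjusted p = 8.1e-05; CD4-fated mice F = 7.74, adjusted p = 3.5e-04, but 0.0541 with the maturation score order). Lag3 passed the filter in CD8-fated mice alone and changed over their bins (F = 12.5, adjusted p = 6.4e-07), with its highest values in MHCII-/- mice in bins 4 and 5, at 5.49 and 9.56 and at 8.91 and 6.96 CPM. This rested on 16, 13, 17, 42, 27 and 10 UMIs in bins 1 to 6, with 1 to 4 mice at 0 in each bin. The Nrgn-led cells of the MHCII-/- mice held 31 and 54 Lag3 UMIs, and their part in this change was not tested. Btla was highest in bin 1 or 2 in all 6 CD4-fated mice. Its change over bins was at F = 3.24 in CD8-fated mice (adjusted p = 0.026) and at F = 2.71 in CD4-fated mice (adjusted p = 0.061), and the interaction with lineage was not called (adjusted p = 0.307). The call in CD8-fated mice was lost without MHCII-/- 1 (0.0549), without MHCII-/- 2 (0.271) and with the maturation score order (0.959). In CD4-fated mice the change was called with library size scaling (6.68e-05) and with cells of the other branch kept (0.0332).

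**Figure D5:**
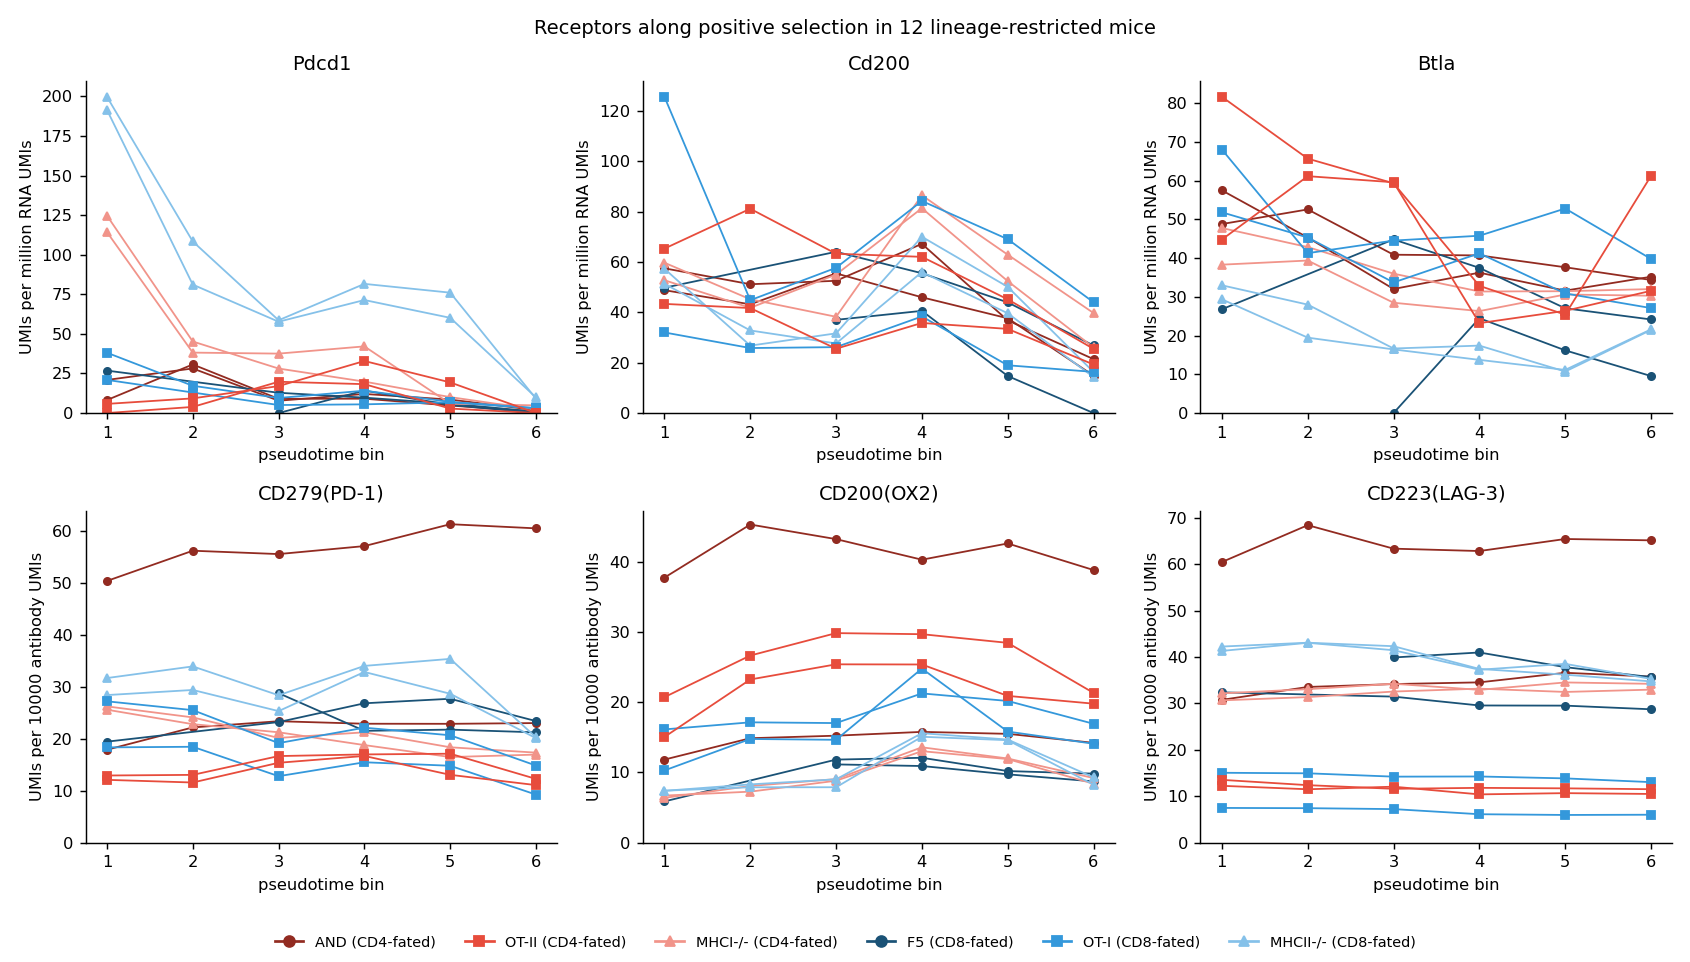
Levels of Pdcd1, Cd200 and Btla (UMIs per 1000000 RNA UMIs) and of CD279(PD-1), CD200(OX2) and CD223(LAG-3) (UMIs per 10000 antibody UMIs) over the 6 pseudotime bins (x axis) in the 12 lineage-restricted mice, with 1 line per mouse. Bins with fewer than 10 cells are left out, so F5 1 has no point in bin 2 and F5 2 starts at bin 3; Pdcd1 falls from bin 1 to bin 6 in most mice, and AND 2 lies highest for all 3 antibodies.

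With the family of mice (MHC-deficient, OT, or Rag1-/- TCR transgenic) in the fit, 1 member RNA was called between lineages in any bin. In bin 2, where 0.33% of genes were called, Pdcd1 was lower in the 6 CD4-fated mice than in the 4 CD8-fated mice (log2 difference -1.11 ± 0.21, adjusted p = 0.0362), as it was in all 4 same-family pairs. Same-family pairs join a CD4-fated and a CD8-fated mouse of equal family and replicate number. A pairing by number was not shown in all families, so they are not matched animals. The MHCII-/- mice were at 81.1 and 108 CPM in that bin against 45.19 and 38.2 in MHCI-/- mice, the OT-I mice at 17.2 and 12.97 against 9.27 and 3.86 in OT-II mice, and AND mice at 30.7 and 28.2 with no F5 mouse to set beside them. This call did not last. With the Nrgn-led cells left out the difference was 0.29 (adjusted p = 0.999), and the call was also lost without AND 1 (0.0818), AND 2 (0.0823), MHCI-/- 1 (0.168), MHCI-/- 2 (0.338), MHCII-/- 1 (0.0829) or MHCII-/- 2 (0.322). In bins 1 and 5 the differences were -0.95 ± 0.26 (adjusted p = 0.549; 0.0511% of genes called) and -1.24 ± 0.53 (adjusted p = 0.218; 5.68% called), lower in 5 of 5 and 4 of 6 same-family pairs. Both were called without the filter on low counts (adjusted p = 0.0432 and 6.3e-05), and that of bin 5 also without OT-II 1 (-1.94, adjusted p = 0.0148). The bins 3, 4 and 6 had 2.17%, 4.08% and 12.4% of genes called.

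Btla leaned to the CD4 lineage without passing the test. It was higher in CD4-fated mice by 0.79 ± 0.22 in bin 3 (adjusted p = 0.069) and by 0.56 ± 0.19 in bin 6 (adjusted p = 0.067), where all 6 same-family pairs showed this direction. In bin 3 the MHCI-/- mice were at 36.0 and 28.5 CPM against 16.4 and 16.7 in MHCII-/- mice, and the OT-II mice at 59.6 and 59.3 against 33.7 and 44.5 in OT-I mice. The AND mice were at 32.03 and 40.9 CPM, beside 44.8 in F5 1 (30 cells) and 0 in F5 2 (13 cells), so that 5 of 6 pairs were higher in bin 3. In bin 4 it was 3 of 6. DESeq2 called both differences (adjusted p = 0.0261 and 0.0499), as did the fit with a replicate block (0.0166 and 0.0199) and that without OT-I 2 (0.00865 and 0.0114). The Cd200 differences ran from -0.17 to 0.60 and none was called (adjusted p of 0.503 or more). By edgeR no member antibody was called between lineages in any bin, where 0%, 0%, 3.6%, 9.01%, 10.8% and 9.91% of the 111 antibodies were. CD279(PD-1) was lower in CD4-fated mice by -0.48 ± 0.22 in bin 1 and -0.57 ± 0.25 in bin 2 (adjusted p = 0.933 and 0.713), in 5 of 5 and 4 of 4 same-family pairs, and DESeq2 called the latter (-0.63, adjusted p = 0.00941).

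Whether the profile over bins differed between lineages was tested by the interaction, which called 18.2% of genes and 17.1% of antibodies. Of the members only CD223(LAG-3) passed (F = 3.72, adjusted p = 0.0356). This antibody went from 41.3 and 42.3 per 10000 in bin 1 to 35.3 and 34.7 in bin 6 in MHCII-/- mice and from 32.2 and 30.7 to 34.2 and 32.97 in MHCI-/- mice. The call was lost without AND 1 (0.728), AND 2 (0.130), F5 1 (0.0715), MHCI-/- 1 (0.0666), MHCI-/- 2 (0.1003), MHCII-/- 1 (0.0654) or MHCII-/- 2 (0.0767). Pdcd1 was at F = 2.84 (adjusted p = 0.092; 0.0425 without the Nrgn-led cells and 0.000383 without OT-II 1) and CD279(PD-1) at F = 3.17 (adjusted p = 0.067; 0.0156 without F5 1 and 0.0135 without F5 2).

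Other genes of these pathways were read from the same fits. Of a list of 26 ligands, related receptors and mediators, 20 were tested between signaled and quiescent DP-like cells and 10 rose and 3 fell, in the contrast with 53.6% of all genes called, with a median log2 change of 0.40 beside -0.02 over all genes. The largest changes were in Pdcd1lg2, which encodes the ligand PD-L2 (5.48 ± 0.40), Cd226, the activating partner of TIGIT's ligands (3.88 ± 0.27), and Cd160, a receptor of HVEM like BTLA (3.84 ± 0.37). From signaled DP-like to CD4 SP cells (44.9% of genes called) 5 of 20 rose and 10 fell, among them Cd160 (-3.14) and Pdcd1lg2 (-2.46), while the inhibitory receptor Ctla4 rose by 2.16. To CD8 SP cells (47.2%) 5 rose and 11 fell, among them Cd200r1, which encodes the receptor for CD200 (-2.42). Between CD4 and CD8 SP cells (36.4%) 16 of 19 were called, with Cd200r1 higher in CD4 SP (2.76) and Cd160 higher in CD8 SP cells (-4.42). In Treg-like against CD4 SP cells (20.7%) 6 of 20 were higher and 3 lower, led by Cd160 (3.66), Ctla4 (3.15) and Pdcd1lg2 (2.71). In negative selection-like against signaled DP-like cells (30.2%) 6 of 18 were higher and 7 lower, with the PD-1 ligand gene Cd274 at 2.68.

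A list of 12 TCR-induced genes gives the signal against which the members can be read, though Egr1, Egr2, Cd5, Cd69, Nr4a1, Nr4a3, Bcl2l11 and Ikzf2 among them served to name clusters and are no independent evidence. All 11 tested rose from quiescent to signaled DP-like cells (median log2 change 3.02, Egr2 5.93), 10 of 11 fell and 1 rose to CD4 SP, and all 10 tested fell to CD8 SP. In negative selection-like cells 8 rose and 3 fell (Nr4a3 4.74). The shares of all genes called in these 4 contrasts were 53.6%, 44.9%, 47.2% and 30.2%. Between lineages, 0, 0, 3, 6, 6 and 7 pathway genes were called in bins 1 to 6, of 18, 18, 17, 19, 18 and 17 tested, where 0.0511%, 0.33%, 2.17%, 4.08%, 5.68% and 12.4% of all genes were. In bin 6 Cd160 was 5.30 lower (-5.30 ± 0.38) and Cd200r1 2.62 ± 0.35 higher in CD4-fated mice.

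Over 71 sums of WT cells by mouse and class, the genes whose log2 level ran most like that of Pdcd1 were Nrgn (Pearson r = 0.788), Litaf (0.698) and Sept11 (0.695). Those for Cd200 were Bach2 (0.878), 2310001H17Rik (0.877) and Ephx1 (0.855), and those for Btla were Ephx1 (0.875), Relb (0.858) and Gpr183 (0.851). Lag3 ran most like Crispld2 (0.702), Tnfaip3 (0.692) and Zfp62 (0.638), and Tigit like Ccl4 (0.685). Among the members the closest pair was Cd200 and Btla (0.802), and the next was Cd200 and Tigit (0.408). The sums share mice and libraries, so these are descriptions across classes of 10100 genes and not tests.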

How the data were processed

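Per the labels and the study's methods, the libraries were 10x Genomics 3′ v3 with the TotalSeq-A panel of 111 antibodies, and the authors counted UMIs with Cell Ranger 3.1.0 on mm10 (per the submitters' processing notes). The deposited matrices hold raw UMI counts per gene and antibody in 85389 barcodes, before the filters on cells given below, and no other unit was used. The authors' totalVI denoising was not rerun.

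Cells were kept with at least 200 genes, at most 15% mitochondrial UMIs, 1000 to 10000 antibody UMIs and 70 antibodies, and 2764 called doublets (3.836%) were removed. RNA was clustered (scanpy 1.11.5, 2000 variable genes without the members or the pathway list, 30 principal components, Harmony over 4 lane groups, Leiden resolution 1), and clusters were named from fixed markers. The rules for splitting mixed clusters and for the start of the order (diffusion pseudotime, 10 components, 6 bins) were set after seeing the data. The members and lists were chosen with earlier results of these data known.

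Counts were summed per mouse, lanes of a mouse together, and class or bin (10 cells or more). edgeR 4.0.16 quasi-likelihood tests (TMM, filterByExpr) were adjusted by Benjamini-Hochberg over all genes or antibodies. Class contrasts had the mouse as a block, since classes came from the same animal, and lineage fits had the family as a covariate. Levels are counts per 1000000 RNA UMIs, or per 10000 antibody UMIs, a relative scale. RNA UMIs per lane ranged from 9893333 to 43303999. On simulated counts 82% of 2-fold changes were recovered for lineage in bin 4 (8505 genes) and 88% for signaled against quiescent DP-like cells (10254 genes). There were 10 and 7 false calls. These counts had a common dispersion for all genes and no mouse or family effects. The shares are averages over genes, so they do not give the power for a member, and an uncalled member difference may be real. Alternatives included DESeq2 1.42.0, other filters and orders, leaving out each mouse, and leaving out the Nrgn-led cells. The last, and the alternatives to the tests of change over bins and of the interaction, were added after seeing the data. Named were the members, at most 3 called genes per list and contrast with the largest changes, and the 3 genes most correlated with each member among those reaching 20 CPM.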

Additional observations from a re-analysis of the deposited data

Results flagged for a closer look

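Of 139 groups of 4 to 10 samples, 26 held a sample far from the rest of its group, where chance alone flags about 1 in 20 independent groups. These groups are not independent, since mice recur over bins and classes, and many Lag3 and Tigit values are 0. All of the flagged antibody values were of CD279(PD-1) and came from 2 mice. WT 1 was high for CD279(PD-1) in signaled DP-like (43.8 per 10000), negative selection-like (45.6), CD4 SP (36.1) and Treg-like cells (43.9). AND 2 was high for CD279(PD-1) among CD4-fated mice in all 6 bins, at 50.3, 56.1, 55.5, 57.0, 61.2 and 60.4 per 10000.

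Among the RNAs, Cd200 was high in CD4 SP cells of WT 5 (126.4 CPM), in bin 1 of OT-I 2 (125.6 CPM) and in bin 2 of OT-II 2 (81.1 CPM), and Btla was high in bin 6 of OT-II 2 (61.2 CPM). The flagged Lag3 values rested on few UMIs: WT 1 was low in signaled DP-like (1.54 CPM) and negative selection-like cells (4.23 CPM), WT 4 alone had any in CD8 SP cells (0.601 CPM), and MHCI-/- 2 was high in bin 3 (3.88 CPM) and OT-II 1 in bin 5 (5.28 CPM). For Tigit single mice stood above others that were all or mostly at 0: WT 3 in CD8 SP cells (0.538 CPM), WT 5 in quiescent DP-like cells (0.174 CPM), MHCI-/- 1 in bin 2 (2.34 CPM), MHCI-/- 2 in bin 4 (0.479 CPM), OT-I 1 in bin 4 (1.09 CPM), and MHCII-/- 2 in bins 5 (0.536 CPM) and 6 (0.135 CPM).

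The effect of lineage on the course of CD223(LAG-3) over the bins passed the interaction test (F = 3.72) and is described with the lineages. Outside the panel, the tables of the third experiment also list antibodies that had not been added, among them BTLA with 48 UMIs and TIGIT with 222 UMIs over 8 lanes, never more than 1 UMI in a barcode. Per lane BTLA had 1 to 13 UMIs and TIGIT 16 to 57, and the median of all antibodies outside the panel was 5 to 19, so they carry no usable signal for these receptors.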

How the results depend on the processing

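Over the 6 bins (0.0511% to 12.4% of genes called), the lineage fits made 2082 RNA calls, of which 1 was of a member. The numbers were 3530 and 5 without the filter on low counts, 997 and 0 without the family covariate, and 3535 and 3 with a replicate block. Member calls were 3 with DESeq2, 2 without the antibody filter on cells, and 0 with the maturation score order, with 3 experiments in the correction or without the Nrgn-led cells. Leaving out 1 mouse gave 1360 to 2953 calls and 0 to 4 of members. Deviations of same-numbered mice correlated at 0.621 for the MHC-deficient, 0.932 for the OT and -0.001 for the Rag1-/- family, in which the numbers follow experiments 1 and 2, so that a pairing by number was not shown in all families. Member antibodies had no lineage call, 1 with DESeq2 and 0 to 1 without 1 mouse. Changes over bins made 9462 RNA calls, 6 of members, where 46.2% and 57.9% of genes were called in CD4-fated and CD8-fated mice. The maturation score order gave 6633 and 3, lost Cd200 in CD4-fated and Btla in CD8-fated mice and did not test Lag3. The interaction made 1731 RNA calls (18.2% of genes), none of a member, and 683 with the maturation score order. It called 1 member with that order, without the low-count filter or without the Nrgn-led cells, and 0 to 1 without 1 mouse. Of the antibodies it called 19, or 17.1% (14 to 31 without 1 mouse), of which 1 was of a member (0 to 2 without 1 mouse, 2 with 3 experiments in the correction). Class contrasts made 22480 RNA calls, 16 of members (6911 and 10 with no replicate block) and 231 antibody calls, 10 of members (67 and 0). Over all features, a contrast called 20.7% to 53.6% of genes and 18% to 44.1% of antibodies. With 3 or 4 member RNAs tested in each, the member counts are not read as a result about the members. Of 9 testable member-antibody pairs in signaled DP-like cells 4 were called, 2 when cells were thinned to 1000 UMIs. The 3 in Treg-like cells could not be called, since 7 mice do not allow a small enough p. Among differences called in the main or the alternative fit, changes of sign were those of Pdcd1 in bin 2 (0.29) and of CD279(PD-1) in cells with a Cd200 UMI (-0.0126) without the Nrgn-led cells, and of CD279(PD-1) between negative selection-like and signaled DP-like cells at Leiden resolution 2 (0.84). Uncalled differences near 0 also changed sign, for example that of Pdcd1 in bin 3 (-0.57 to 0.62 over the alternatives). Unless a value shows it, the cause was not tested. Tigit passed no filter on low counts.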

Other observations

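A cluster of 2121 cells led by Maf, Cpa3, Blk, Cd163l1 and Sox13, genes known from gamma-delta T cells, was read for Pdcd1 in the mice with at least 10 such cells, none of them WT. Pdcd1 there was at 110.05 and 219 CPM in AND mice, 212 and 296 in MHCII-/- mice, 113.6 and 71.7 in OT-I mice, 117 and 74.6 in OT-II mice, and 0 and 16.3 in F5 mice. The MHCII-/- values came from 15 cells each and that of F5 1 from 10 cells. The cells are called by their leading genes, because the antibody against the gamma-delta TCR was near its level on signaled DP-like cells in AND, F5 and OT-I mice. It was at 16.9 and 26.2 per 10000 in AND mice, close to the 13.8 and 27.5 of their signaled DP-like cells, and at 2.95 and 6.61 in OT-I mice, whereas it reached 89.6 and 185 in MHCII-/- mice and 42.4 and 45.6 in OT-II mice, whose signaled DP-like cells were at 5.24 and 5.18. These values were not tested, and Rag1-/- thymocytes are known not to rearrange gamma-delta TCR genes.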
